A study of Mus musculus with 6 samples.

Results

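The BCL2 family genes examined here are 10 genes that encode proteins controlling mitochondrial apoptosis, taken from a table of 34745 genes by an exact match of the gene name; each name matched 1 row. They comprise 3 anti-apoptotic members (Bcl2, Bcl2l1 and Mcl1) and 7 pro-apoptotic members, namely the effectors Bax and Bak1 and the 5 BH3-only genes Bid, Bad, Bbc3, Pmaip1 and Bcl2l11. RNA was sequenced from peritoneal macrophages, the phagocytes of the abdominal cavity, of C57BL/6 mice. One group was kept with R-2-hydroxyglutarate (R-2-HG), the metabolite made by cancer-associated mutant isocitrate dehydrogenases, at 0.1 mM for 24 h, and the other was kept with vehicle for 24 h. Each group had 3 libraries, numbered from 1 to 3 in the labels. The labels name no genotype or allele for either group and give no animal age, and they do not say whether the libraries came from separate animals or cultures. The p-values therefore measure the spread between these libraries, which may be technical.

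In healthy cells the anti-apoptotic proteins BCL2, BCL-XL (from Bcl2l1) and MCL1 hold the effectors BAX and BAK in check. When enough BH3-only protein accumulates, through transcription, cleavage or loss of a phosphate group, the effectors open the outer mitochondrial membrane and cytochrome c leaves to start the caspase cascade. Myeloid cells are known to lean on MCL1 and on the BCL2A1 proteins for survival. Transcript levels are only a part of this control, since MCL1 turns over rapidly and BID, BAD and BAX are regulated as proteins.

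The unit is FPKM, which divides the fragment count of a gene by transcript length and by the mapped total, so levels of different genes can be compared per length. Depth, estimated from the steps between low values, was between 13480000 and 16370000 fragments per library, so that 1 fragment of a 2 kb transcript was worth between 0.0305 and 0.0371 FPKM. Between 12817 and 14938 genes had a value above 0 in R-2-HG libraries, and between 13872 and 15270 in vehicle libraries; the fewest were in R-2-HG library 3. Macrophage markers dominated. Lyz2, Cd68, Csf1r, Adgre1 and Itgam summed to between 18739 and 25520 FPKM with R-2-HG and between 20215 and 22765 FPKM with vehicle. Most of each sum was Lyz2, which ran from 16924 to 23901 FPKM. Itgam was at 44.4 FPKM in R-2-HG library 1 and from 88.4 to 113 FPKM in the other libraries. The 5 B cell markers summed to between 5.96 and 7.56 FPKM with R-2-HG and between 5.82 and 33.95 FPKM with vehicle, with vehicle library 1 the highest through Ighm. The 5 T and NK cell markers summed to at most 1.64 FPKM with R-2-HG and 4.78 FPKM with vehicle, and the 4 mast cell markers to at most 1.94 and 1.04 FPKM in the same order. The 6 neutrophil markers summed to between 49.1 and 55.7 FPKM with R-2-HG and between 50.9 and 58.3 FPKM with vehicle, mostly Csf3r and S100a8, while Ly6g, which defines mouse neutrophils, was listed at 0 in 5 of 6 libraries. The 5 fibroblast and mesothelial markers ran from 1.95 to 58.2 FPKM with R-2-HG and from 2.82 to 66.8 FPKM with vehicle, highest in library 1 of each group. In such bulk samples fewer cells of a type and less RNA per cell cannot be told apart.

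The family spanned more than 2 orders of magnitude, and its 2 sides were led by 1 abundant transcript each. Mcl1 was the most abundant member, above 98.6% of the genes tested, and averaged 207 ± 19.5 FPKM with R-2-HG and 205 ± 14.5 FPKM with vehicle (SD, n = 3 each). Bax followed at 63.1 ± 3.51 FPKM with R-2-HG and 68.0 ± 6.18 FPKM with vehicle, and Bak1 at 16.8 ± 1.77 and 16.2 ± 1.31 FPKM in the same order. The 5 BH3-only genes lay between 3.34 and 6.03 FPKM as means over all 6 libraries. Bcl2l1 averaged 2.31 FPKM and Bcl2, the founding member of the family, 0.770 FPKM over the 6 libraries. Going down this order, Mcl1 over Bax (3.14-fold), Bax over Bak1 (3.97-fold), Bak1 over Bad (2.74-fold) and Bcl2l1 over Bcl2 (2.998-fold) did not overlap across the 6 libraries. From Bad through Bid, Bcl2l11, Pmaip1 and Bbc3 to Bcl2l1 each gene overlapped with the next, so the order of such neighbours is not resolved. Genes farther apart could separate. Bad, Bid and Bcl2l11 did not fall below 3.79 FPKM in any library, and Bcl2l1 did not exceed 3.57 FPKM.

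**Figure D1:**
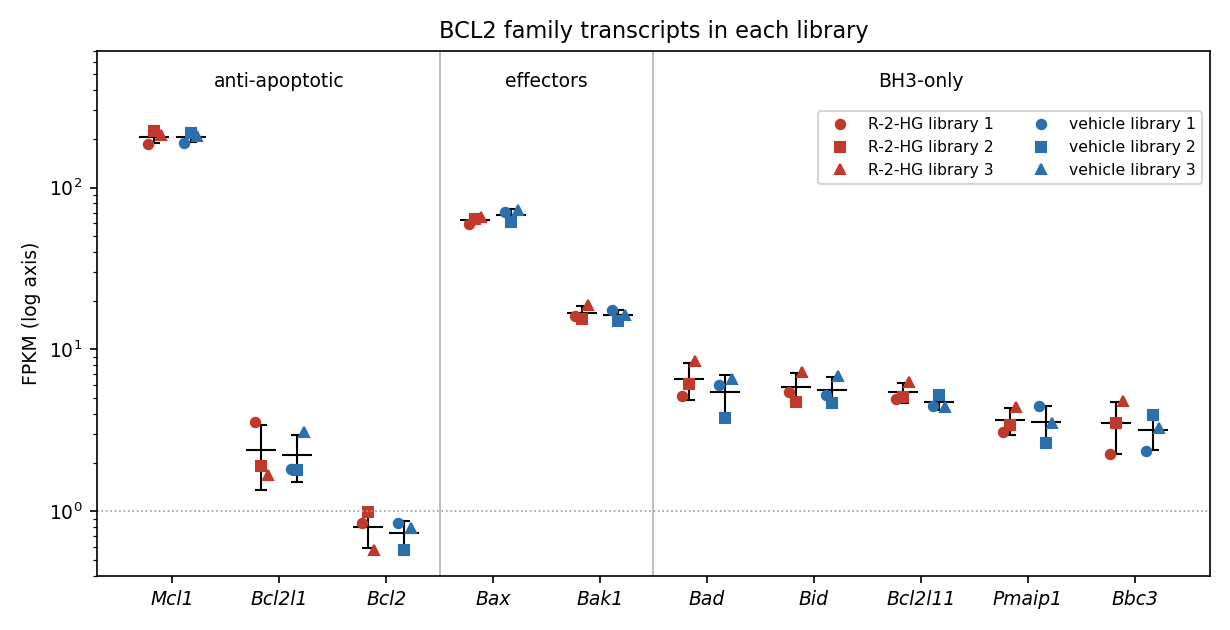
FPKM of each member on a log axis, with R-2-HG libraries left of vehicle libraries, the shape giving the library number, black dashes the group means, bars the SD (n = 3) and the dotted line 1 FPKM. Mcl1 sits between 185 and 224 FPKM and Bcl2 below 1 FPKM in all 6 libraries, and the groups overlap for every member.

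The promoters of the most abundant anti-apoptotic member, the most abundant pro-apoptotic member and the least abundant member are shown to set the extremes of this range side by side. Each line gives the 250 bases before the RefSeq start site (GRCm38.p6), 5′ to 3′ on the gene's strand, and capitals mark the GC box GGGCGG on either strand. Mcl1 is chr3:95658471-95658720 on the plus strand, Bax chr7:45466899-45467148 and Bcl2 chr1:106714291-106714540 on the minus strand.
Mcl1: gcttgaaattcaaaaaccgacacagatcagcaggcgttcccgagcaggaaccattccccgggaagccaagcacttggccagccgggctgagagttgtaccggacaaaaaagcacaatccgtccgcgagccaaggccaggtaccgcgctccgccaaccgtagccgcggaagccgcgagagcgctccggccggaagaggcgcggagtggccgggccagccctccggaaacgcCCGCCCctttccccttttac
Bax: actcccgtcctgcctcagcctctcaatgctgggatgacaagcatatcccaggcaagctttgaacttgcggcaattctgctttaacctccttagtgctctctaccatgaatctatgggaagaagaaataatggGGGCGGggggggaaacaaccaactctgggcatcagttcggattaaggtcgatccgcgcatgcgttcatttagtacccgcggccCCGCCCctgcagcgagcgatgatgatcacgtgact
Bcl2: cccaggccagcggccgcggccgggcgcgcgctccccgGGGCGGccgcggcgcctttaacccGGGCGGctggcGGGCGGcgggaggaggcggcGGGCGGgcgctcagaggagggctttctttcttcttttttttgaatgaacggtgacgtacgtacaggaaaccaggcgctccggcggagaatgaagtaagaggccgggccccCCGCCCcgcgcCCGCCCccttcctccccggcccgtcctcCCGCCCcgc
The window of Bcl2 held 7 GC boxes, 36 CpG dinucleotides and 74.8% G and C, more than that of the far more abundant Mcl1, with 1 GC box, 26 CpG and 64.4%. Bax had 2 GC boxes, 14 CpG and 54.0%. Over 32851 promoter windows of the same length, 32.7% held a GC box, the median CpG count was 6 and the median G and C content 52.4%. None of the 3 held the letters TATAAA (in 12.4% of windows) or CCAAT (33.8%) on either strand. The Bax window held CACGTG (6.02%) and the Bcl2 window TGACGT (6.47%). A p53 response element was searched on both strands as 2 half-sites up to 13 bases apart. It was in 0.0639% of windows and in none of the 15 windows of the 9 members that were searched. Pmaip1 was not among those 9. Such matches describe letters in a window and do not locate a bound site.

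No member passed the test between the R-2-HG and vehicle libraries. With limma on log2(FPKM + 1) and Benjamini-Hochberg adjustment over 9701 genes, 0 of the 9 members tested passed an adjusted p of 0.05, against 0.0% of all genes, and 0 members had an unadjusted p under 0.05, against 1.44% of genes (140 of 9701). The adjusted p was 0.99998 for all 9. This fit did not use the library number as a block, and the intervals below come from it. Bcl2 lay under the filter of a mean of 1 FPKM and was not tested there. The groups overlapped for all 10 members, whereas they did not overlap for 4.69% of the genes tested, 2.03% with R-2-HG above and 2.66% with R-2-HG below. On the log2 scale 8 of the 9 means were higher with R-2-HG and 1 was lower, with a median change of 0.05 against 0.00 for all genes tested, of which 48.4% were higher. That count moved with single libraries: without R-2-HG library 3, 3 of the 9 were higher and 6 lower, without vehicle library 2 the counts were 4 and 5, and without vehicle library 1 they were 5 and 4.

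Among the anti-apoptotic genes, Mcl1 (chromosome 3, 95658788 to 95663176, GRCm38) encodes a short-lived guardian that binds BAK and the BH3-only proteins NOXA and BIM. With R-2-HG it stood at 185, 224 and 211 FPKM in libraries 1, 2 and 3, and with vehicle at 189, 218 and 207 FPKM in libraries 1, 2 and 3; the values of the other members follow the same order of libraries. Library 1 was lowest and library 2 highest in each group, so that the values followed the library number more than the treatment. The R-2-HG value was 0.980, 1.03 and 1.02 times the vehicle value of the same number. The log2 change was 0.01 with a 95% interval from -0.25 to 0.27 (limma).

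Bcl2l1 (chromosome 2, 152780668 to 152831728) encodes the guardian BCL-XL and, through another splice form, the pro-apoptotic BCL-XS, which gene-level values do not separate. It stood at 3.57, 1.90 and 1.68 FPKM with R-2-HG and at 1.83, 1.79 and 3.07 FPKM with vehicle. One library of each group was high, number 1 with R-2-HG and number 3 with vehicle, so the same-numbered ratios were 1.95, 1.06 and 0.547. Its log2 change was 0.05, with an interval from -0.52 to 0.62, and its residual SD of 0.37 was larger than that of 87.6% of the genes tested. At this level a value rested on roughly 12 to 148 fragments, depending on the transcript length taken.

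Bcl2 (chromosome 1, 106538178 to 106714274) encodes the guardian that lymphocytes depend on. It stood at 0.848, 0.984 and 0.578 FPKM with R-2-HG and at 0.845, 0.579 and 0.786 FPKM with vehicle. The lowest value of each group was all but identical. R-2-HG libraries 1 and 2 lay above all vehicle libraries, library 1 narrowly. The groups overlapped through R-2-HG library 3, which lay narrowly below all vehicle libraries. An exact permutation test of the FPKM values gave p = 0.6 (two-sided, n = 3 each, smallest possible 0.1). In a limma fit without the filter the log2 change was 0.05, from -0.29 to 0.39. The B cell marker sum, mostly Ighm, and the T and NK cell marker sum were highest in vehicle library 1, and Bcl2 in R-2-HG library 2. The part of lymphocytes in the Bcl2 values was not tested.

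Of the effectors that form the pore, Bax (chromosome 7, 45461697 to 45466898) was the only tested member with a lower mean with R-2-HG. It stood at 59.3, 63.9 and 66.1 FPKM with R-2-HG and at 70.5, 60.96 and 72.5 FPKM with vehicle. Vehicle libraries 1 and 3 lay above all R-2-HG libraries, and vehicle library 2 lay among them. The log2 change was -0.10 (SE 0.11, interval -0.35 to 0.15) and did not pass. Bak1 (chromosome 17, 27019810 to 27029009) stood at 16.2, 15.4 and 18.8 FPKM with R-2-HG and at 17.5, 14.9 and 16.3 FPKM with vehicle. R-2-HG library 3 was the highest of the 6, and the log2 change was 0.05, from -0.23 to 0.32. Bax and Bak1 had small residual SDs, above those of 16.8% and 23.7% of genes.

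**Figure D2:**
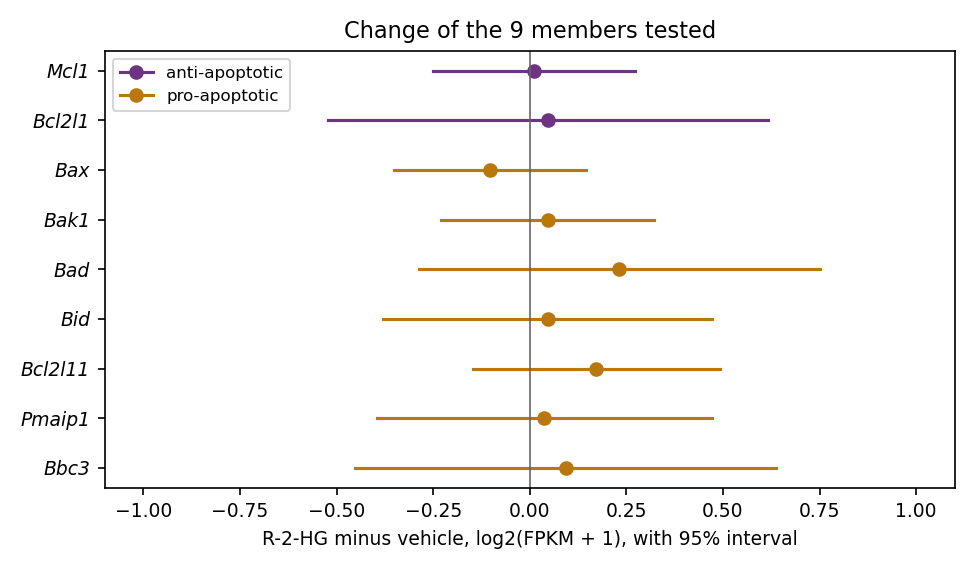
Log2 change of the 9 tested members (R-2-HG minus vehicle on the log2(FPKM + 1) scale, points) with 95% intervals from limma (lines), anti-apoptotic members in purple and pro-apoptotic members in orange. All 9 intervals hold 0 and lie within 1 unit of it; Bad has the largest change, 0.23.

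The BH3-only genes encode the sensors that trigger the effectors or block the guardians. Bad (chromosome 19, 6941861 to 6951899), whose protein neutralises BCL2 and BCL-XL when it is not phosphorylated, stood at 5.16, 6.15 and 8.45 FPKM with R-2-HG and at 6.07, 3.79 and 6.59 FPKM with vehicle. Only R-2-HG library 3 lay above all vehicle libraries. Its log2 change of 0.23 (SE 0.22, interval -0.29 to 0.75) was the largest in size of the 9. It depended on single libraries, at 0.028 without vehicle library 2 and 0.062 without R-2-HG library 3. Without vehicle library 2, every other tested member except Bak1 had a change larger in size. With the library number as a block Bad had the smallest unadjusted p of the members, 0.213 by limma, and without both libraries of number 1 it reached 0.037, with an adjusted p of 0.998.

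Bcl2l11 (chromosome 2, 128126038 to 128162547) encodes BIM, the BH3-only protein that removes activated lymphoid and myeloid cells. It stood at 4.96, 5.05 and 6.33 FPKM with R-2-HG and at 4.46, 5.26 and 4.40 FPKM with vehicle. Vehicle library 2 lay above R-2-HG libraries 1 and 2, so the groups overlapped. With a log2 change of 0.17 (SE 0.14, interval -0.15 to 0.49) it had the smallest unadjusted p of the members, 0.247 by limma, which did not pass. The change was 0.077 without R-2-HG library 3.

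Bid (chromosome 6, 120891930 to 120916853), whose protein is cut by caspase-8 and so links death receptors to mitochondria, stood at 5.45, 4.76 and 7.26 FPKM with R-2-HG and at 5.21, 4.69 and 6.90 FPKM with vehicle. It was the only member higher with R-2-HG in all 3 same-numbered pairs, as were 11.7% of the genes tested. The ratios were 1.05, 1.02 and 1.05, far smaller than the spread between library numbers. Its log2 change was 0.05, from -0.38 to 0.47.

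Bbc3 and Pmaip1, which encode PUMA and NOXA, are known p53 targets, and NOXA binds MCL1 in particular. Bbc3 (chromosome 7, 16308393 to 16318205) stood at 2.26, 3.49 and 4.77 FPKM with R-2-HG and at 2.34, 3.91 and 3.25 FPKM with vehicle. Library 1 was lowest in each group, and R-2-HG library 3 was the highest of the 6. Pmaip1 (chromosome 18, 66458533 to 66465565) stood at 3.07, 3.43 and 4.44 FPKM with R-2-HG and at 4.47, 2.66 and 3.53 FPKM with vehicle. The log2 changes were 0.09 (interval -0.45 to 0.64) for Bbc3 and 0.04 (-0.40 to 0.47) for Pmaip1.

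**Figure D3:**
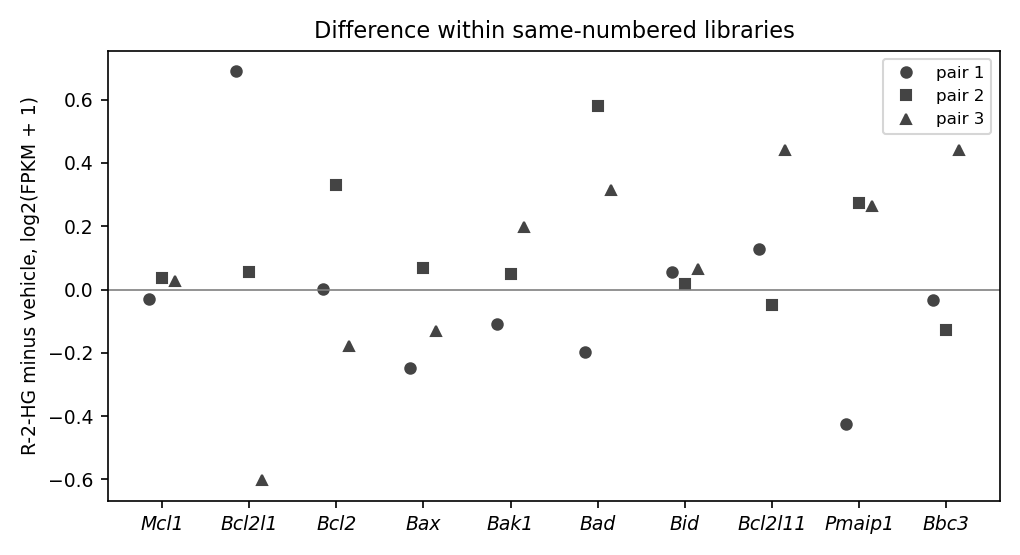
Difference between the R-2-HG and the vehicle library of the same number, on the log2(FPKM + 1) scale, for each member, with the shape giving the number. Mcl1 and Bid lie within 0.065 of 0 in all pairs, while the pairs of Bcl2l1 run from -0.60 to 0.69.

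The members differed in how far they followed the library number. For Mcl1 the mean size of the difference within a same-numbered pair was 0.031 on the log2(FPKM + 1) scale, while the pair means spanned 0.24. For Bid these were 0.046 and 0.496, and for Bbc3 0.20 and 0.58. Bcl2l1 showed the opposite order, with 0.45 within pairs and 0.34 between them, as did Bcl2 (0.17 and 0.14), Bcl2l11 (0.20 and 0.14) and Pmaip1 (0.32 and 0.30). For Bax the 2 were alike (0.148 and 0.148).

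R-2-HG library 3 stood apart for the pro-apoptotic genes. It held the highest value of the 6 libraries for 5 of the 7 pro-apoptotic members (Bak1, Bid, Bad, Bbc3 and Bcl2l11) and the lowest for Bcl2l1 and, narrowly, Bcl2. Over all genes tested it was the highest library for 24.6% and the lowest for 25.2%, so it stood at an extreme more often than the other libraries, which were highest for between 9.82% and 23.8%. The BH3-only genes summed to 31.2 FPKM there, against 20.9 and 22.9 FPKM in the other R-2-HG libraries and 22.6, 20.3 and 24.7 FPKM in the vehicle libraries. It was also the library with the fewest genes above 0, whose part in this was not tested.

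Set against each other within a library, the anti-apoptotic side outweighed the pro-apoptotic side in summed FPKM in all 6 libraries. The 3 anti-apoptotic members summed to 189.8, 227 and 213 FPKM with R-2-HG and to 192, 220.2 and 211 FPKM with vehicle. The 7 pro-apoptotic members summed to 96.4, 102 and 116 FPKM with R-2-HG and to 111, 96.2 and 113 FPKM with vehicle. The ratio of the sums was 2.01 ± 0.193 with R-2-HG and 1.96 ± 0.292 with vehicle (SD, n = 3 each). The difference of 0.045 is smaller than the spread within either group; a score over chosen genes was given no test.

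Mcl1 and Bax were the largest parts of the 2 sums. Mcl1 supplied between 97.7% and 98.9% of the anti-apoptotic sum with R-2-HG and between 98.2% and 98.9% with vehicle. Without Mcl1 and Bax the order turned round. Bcl2l1 and Bcl2 summed to 0.0799 ± 0.0372 times the other pro-apoptotic members with R-2-HG and 0.0762 ± 0.0156 times with vehicle. These shares and this turn hold for the members alone. The Bcl2a1 genes, given below, stand outside the sums, and Bcl2a1b averaged 177 FPKM over all libraries. As a mean of log2(FPKM + 1), which weights members equally, the anti-apoptotic side lay above the pro-apoptotic side by 0.16 ± 0.35 with R-2-HG and 0.20 ± 0.075 with vehicle, and below it in R-2-HG library 3 alone. The group difference of this score, -0.04, became 0.16 without R-2-HG library 3 and -0.18 without R-2-HG library 1.

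The share of Bax in the pro-apoptotic sum, described after its values were seen and without a test, was 61.5%, 62.5% and 56.9% in R-2-HG libraries 1, 2 and 3 and 63.8%, 63.4% and 63.9% in vehicle libraries 1, 2 and 3. All R-2-HG libraries lay below all vehicle libraries in this share, alone among the sums, shares, ratios and scores computed for each library. Neither the level of Bax nor that of any BH3-only gene separated the groups. With 3 libraries each, even a full separation cannot take an exact permutation test below p = 0.1. Bax over Bak1, the ratio of the effectors, was 3.67, 4.14 and 3.52 with R-2-HG and 4.03, 4.09 and 4.46 with vehicle, and overlapped. Mcl1 over Pmaip1, a guardian over the BH3-only gene that targets it, was 57.7 ± 9.16 with R-2-HG and 60.99 ± 19.9 with vehicle.

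**Figure D4:**
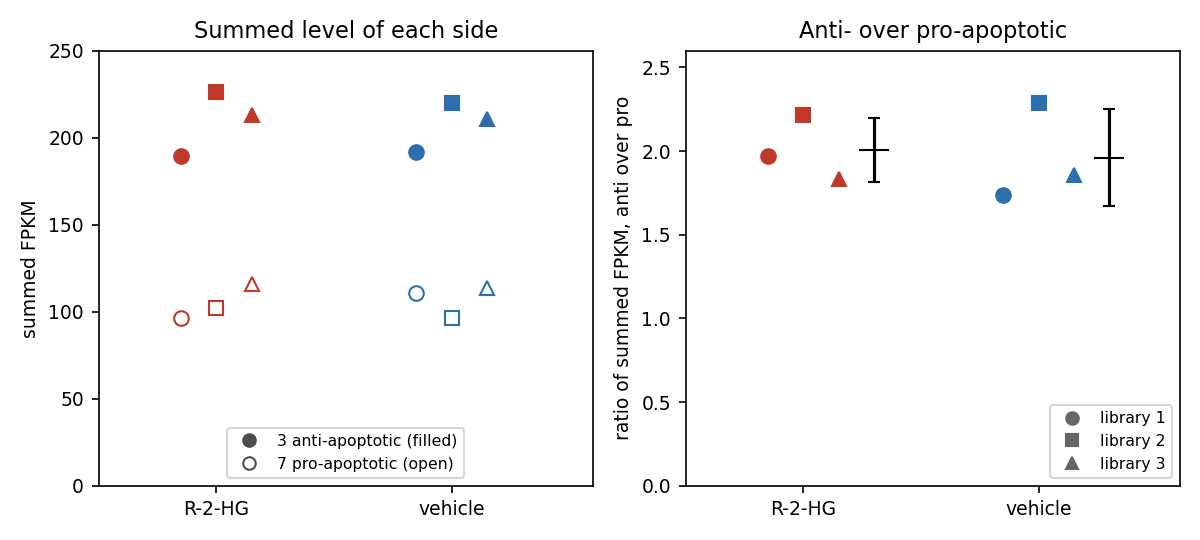
Left, FPKM summed over the 3 anti-apoptotic (filled) and 7 pro-apoptotic (open) members in each library; right, their ratio, with the group mean and SD (n = 3) as black bars. The ratios of R-2-HG libraries, 1.83 to 2.22, lie within those of vehicle libraries, 1.74 to 2.29.

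The genes that varied most like Mcl1 over the 6 libraries on log2(FPKM + 1), among 3416 others with a mean of at least 10 FPKM, were Malt1 (Pearson r = 0.998), Arid4a (r = 0.991) and Bms1 (r = 0.987). For Bax they were Tbc1d10b (r = 0.972), Azin1 (r = 0.963) and Ssu72 (r = 0.960). The highest of so many coefficients over 6 points that share library and depth are a description.

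Around these members, 9 lists held 80 other genes of the death pathways (Cycs stands in 2 of them), of which 64 were tested. By limma 0 passed, 0 had an unadjusted p under 0.05, and the groups overlapped for all 64, against 4.69% of all genes without overlap. Of the 64, 31 had a higher and 33 a lower mean with R-2-HG, with a median log2 change of -0.0030. Some genes below are described as higher or lower with R-2-HG in all 3 same-numbered pairs. Of all genes tested, 11.7% were higher and 11.8% lower in all 3. The description is not given for every named gene it holds for, and most genes given it were named by their p.

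The BCL2A1 genes, guardians of myeloid cells, showed that Mcl1 was not alone on the anti-apoptotic side. Bcl2a1b averaged 175 ± 32.5 FPKM with R-2-HG and 179 ± 27.3 FPKM with vehicle (SD, n = 3), and Bcl2a1d 69.6 ± 9.36 and 66.4 ± 11.3 FPKM in the same order. Bcl2a1a stood at 5.49 ± 0.664 and 6.97 ± 1.71 FPKM and Bcl2l2, which encodes BCL-W, at 3.07 ± 1.66 and 2.12 ± 0.453 FPKM. The Bcl2a1 copies are nearly identical, so reads can be split between them and the values of each are uncertain. Of the 6 listed guardians 4 were tested, 2 higher and 2 lower (median 0.02), and 0 passed.

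Among 10 other family genes 5 were tested, 2 higher and 3 lower (median -0.05), and 0 passed. The mitophagy receptor gene Bnip3l averaged 67.5 ± 9.33 FPKM with R-2-HG and 69.4 ± 3.99 FPKM with vehicle, and its relative Bnip3 6.30 ± 0.6535 and 6.58 ± 1.12 FPKM. The log2 changes were 0.28 (SE 0.18) for Bcl2l12 and 0.16 (SE 0.17) for the BH3-only gene Bmf. The pore-forming relative Bok averaged 0.287 FPKM over all libraries and the BH3-only genes Hrk and Bik 0.00169 and 0 FPKM.

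Downstream of the mitochondrion, 7 of 8 genes of the apoptosome, the caspases and their targets were tested, 3 higher and 4 lower (median -0.01), and 0 passed. Apaf1, the scaffold of the apoptosome, averaged 6.82 ± 1.24 FPKM with R-2-HG and 5.30 ± 0.592 FPKM with vehicle and was higher in all 3 pairs (log2 change 0.31, SE 0.15). Casp9, which it activates, averaged 7.31 ± 0.368 and 8.24 ± 1.14 FPKM, and the caspase substrate gene Parp1 14.6 ± 1.44 and 13.8 ± 1.20 FPKM. Cycs, the gene of cytochrome c, was listed at only 0.744 FPKM over all libraries. It has many processed pseudogenes that can take its reads, so this value is uncertain.

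Of the factors of the intermembrane space, the inner membrane gene Opa1 and the channels of the outer membrane, 8 of 9 were tested, 5 higher and 3 lower (median 0.02), and 0 passed. Endog, a mitochondrial nuclease, came nearest to a difference of all 64 genes. It stood at 2.65, 1.38 and 1.73 FPKM with R-2-HG and at 2.80, 2.43 and 5.04 FPKM with vehicle. It was lower in all 3 pairs, but R-2-HG library 1 lay above vehicle library 2 (log2 change -0.58, interval -1.16 to 0.01). The VDAC channels were abundant, Vdac1 at 39.5 ± 4.99 FPKM with R-2-HG and 39.2 ± 4.76 FPKM with vehicle and Vdac3 at 32.5 ± 3.17 and 30.1 ± 4.87 FPKM. Vdac2, which holds BAK at the membrane, averaged 33.1 ± 3.45 and 29.3 ± 1.51 FPKM (log2 change 0.16, SE 0.11).

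Of 7 inhibitor of apoptosis genes 6 were tested, 3 higher and 3 lower (median 0.00), and 0 passed. Xiap, the direct caspase inhibitor, was scattered in each group, at 6.62, 12.2 and 4.52 FPKM with R-2-HG and 2.86, 3.11 and 11.7 FPKM with vehicle, and its interval from -0.71 to 1.69 allows large changes. Birc2 averaged 3.25 ± 0.393 FPKM with R-2-HG and 2.88 ± 0.412 FPKM with vehicle. Naip2 (38.9 ± 3.65 and 38.7 ± 4.27 FPKM) and Naip5 (19.1 ± 3.35 and 19.3 ± 4.07 FPKM), better known as sensors of bacterial proteins in macrophages, are close paralogs and share reads.

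In the extrinsic arm 7 of 10 genes were tested, 3 higher and 4 lower (median -0.02), and 0 passed. Fas averaged 3.09 ± 0.427 FPKM with R-2-HG and 4.001 ± 0.788 FPKM with vehicle and was lower in all 3 pairs (log2 change -0.28, SE 0.16), as was the TNF receptor gene Tnfrsf1a (31.2 ± 3.02 and 34.6 ± 4.04 FPKM). The adaptor gene Tradd, 6.57 ± 1.79 and 4.80 ± 0.734 FPKM, was higher in all 3 pairs (log2 change 0.37, SE 0.19). Casp8, whose enzyme cuts BID, averaged 20.5 ± 2.75 and 19.7 ± 1.08 FPKM.

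Upstream, the p53 pathway split evenly, with 6 of 12 genes higher and 6 lower (median -0.01) and 0 passing. Cdkn1a, the classical p53 target that encodes the cell cycle inhibitor p21, averaged 23.3 ± 1.27 FPKM with R-2-HG and 23.1 ± 1.96 FPKM with vehicle (log2 change 0.01, interval -0.24 to 0.26). Ccng1 averaged 25.8 ± 3.47 and 22.7 ± 3.904 FPKM and Aen, a nuclease gene, 2.17 ± 0.548 and 1.61 ± 0.375 FPKM. Trp53inp1, named after its values were seen, stood at 9.36, 10.3 and 0.987 FPKM with R-2-HG and 8.25, 11.5 and 7.91 FPKM with vehicle. Its log2 change of -0.72 (SE 0.65) thus came from R-2-HG library 3.

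A list of transcription factors of the BH3-only genes also holds the ATF4 targets Trib3 and Chac1. Of its 7 tested members 4 were higher and 3 lower (median 0.04), and 0 passed. Atf4, the stress factor upstream of Bbc3 and Pmaip1, averaged 141 ± 30.5 FPKM with R-2-HG and 133 ± 22.0 FPKM with vehicle, and Jun 96.8 ± 15.3 and 96.9 ± 15.1 FPKM. Trib3 averaged 3.04 ± 0.905 and 2.06 ± 0.580 FPKM and was higher in all 3 pairs (log2 change 0.39, SE 0.22). Foxo1, a factor that drives Bcl2l11, averaged 2.53 ± 0.346 and 3.26 ± 0.740 FPKM and was lower in all 3 pairs (-0.26, SE 0.17). Of 9 genes acting on MCL1, BIM or BAD proteins 8 were tested, 3 higher and 5 lower (median -0.06), and 0 passed. The 14-3-3 genes Ywhae (76.2 ± 6.51 and 83.5 ± 8.33 FPKM) and Ywhaz (21.9 ± 3.07 and 25.8 ± 1.62 FPKM), whose proteins bind phosphorylated BAD, and the ubiquitin ligase gene Btrc (2.88 ± 0.741 and 2.20 ± 0.543 FPKM) did not pass.

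**Figure D5:**
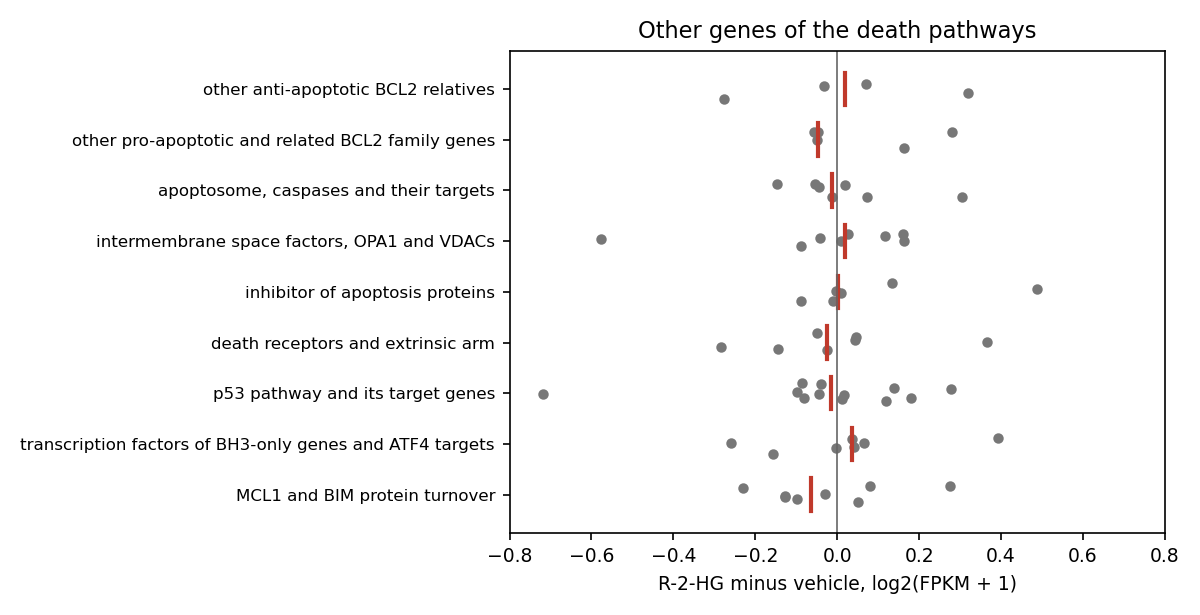
Log2 change of each tested gene (R-2-HG minus vehicle, log2(FPKM + 1), grey points, spread vertically for legibility) in the 9 lists of death pathway genes, with the list's median as a red line. The medians lie between -0.06 and 0.04. The points farthest left are Trp53inp1 (-0.72) and Endog (-0.58).

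Some member values can hold reads of other genes where exons overlap, and the handling of strand is not given in the sources used here. In GENCODE M21, exons of Bid overlap Bcl2l13 on the opposite strand (5.46 FPKM over all libraries), exons of Bad overlap Gpr137 (3.02 FPKM), and exons of Bak1 overlap Ggnbp1 (0.208 FPKM in the model listed). Bcl2 has an antisense model listed at 0, and Bax overlaps a model on the same strand. Without strand, reads in the overlap of exons on opposite strands cannot be told apart. For Bax, strand would not separate the reads in the overlap.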

How the data were processed

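Expression was measured by RNA-seq in 3 R-2-HG and 3 vehicle libraries. The authors deposited FPKM for 34745 genes in 1 column per library, used here as deposited. Per the submitters' processing notes, Bowtie 0.12.2 and Cuffdiff were used, with the builds mm8 and mm10 listed and no role or order stated. FPKM keeps no counts, so no count test was run. The test was limma (version 3.58.1, R 4.3.3) on log2(FPKM + 1) for the 9701 genes whose mean reached 1 FPKM (trend, robust, two-sided, Benjamini-Hochberg, threshold 0.05). It was checked on simulated data in which each library varied independently. That check therefore does not cover the likeness of same-numbered libraries described below. That scale understates changes of low genes. Changes carry limma's moderated SE, FPKM means an SD. Single-gene exact permutation tests cannot go below p = 0.1.

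Depth came from single-transcript genes over 1000 bp, where 95.8% to 97.0% of low values lay within 0.1 of a whole fragment count. Coordinates are from GENCODE M21 (GRCm38), where 34267 gene identifiers were found. Promoters are from RefSeq (GRCm38.p6), with windows of 9 members described. Pmaip1, on chromosome 18, was left out of the member windows. Alternatives varied the pseudocount, filter, scaling, variance moderation, replicate block and libraries left out.

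The members and lists were chosen with earlier results of these data known. Some genes of these pathways are not reported here and stand in no count over the lists. Named are all members, per list up to 2 genes by p and 2 by level, and the 3 genes most like the leading member of each side. Bok, Hrk, Bik, Cycs and Trp53inp1 were named after their values were seen. Deviations from group means correlated at 0.54, 0.37 and 0.36 in same-numbered libraries, and at most at 0.046 otherwise. Deviations within a group cancel for each gene, so positive values in same-numbered libraries pull the others down. The low values otherwise are therefore no separate support for a pairing. By the criterion of 0.1 in all 3 pairs the numbers pair the libraries, a pairing taken from the data, as the labels do not say what the number marks.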

Additional observations from a re-analysis of the deposited data

How the results depend on the processing

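No member and no listed gene passed under any of the 16 alternatives of the fit. With the replicate number as a block, 0 of 9701 genes passed, 329 had an unadjusted p under 0.05 against 140 without it, and the block changed no call of a member. The block made the SE smaller for every tested member except Bcl2l1. It was 0.057 against 0.113 without the block for Mcl1, 0.098 against 0.184 for Bid and 0.248 against 0.246 for Bcl2l1. The intervals given for members are thus mostly wider than those of a paired fit. Over all genes, leaving out 1 library called between 0 and 1 gene, with 1 each without R-2-HG replicate 1 or R-2-HG replicate 3. The replicate block without both libraries of a number called 1 gene without number 1 and 4 without number 3, and 0 without number 2; none was a member. The cause was not tested. The direction of 23 of 154 member values and 39 of 518 values of listed genes changed, in each case with libraries left out. Without single libraries the log2 changes of members whose sign turned ran over these ranges: Bcl2 -0.021 to 0.14, Bcl2l1 -0.19 to 0.22, Mcl1 -0.047 to 0.088, Bak1 -0.033 to 0.10, Bid -0.10 to 0.18, Bbc3 -0.10 to 0.31, Pmaip1 -0.11 to 0.18. Those of the other members ran over Bax -0.18 to -0.055, Bad 0.028 to 0.37, Bcl2l11 0.077 to 0.24. For listed genes whose sign turned the ranges were Bcl2a1b -0.17 to 0.10, Bcl2a1d -0.032 to 0.20, Bnip3 -0.16 to 0.050, Bnip3l -0.11 to 0.071, Vdac1 -0.082 to 0.11, Naip2 -0.066 to 0.089, Naip5 -0.18 to 0.12, Casp8 -0.053 to 0.13, Cdkn1a -0.043 to 0.072, Atf4 -0.10 to 0.20, Jun -0.12 to 0.12. In the replicate block the values with a turned sign were, without number 1 Bcl2l1 -0.27, Casp8 -0.026, Jun 0.048; without number 2 Mcl1 -0.0013, Pmaip1 -0.080, Bcl2 -0.088, Bcl2a1b 0.017, Bnip3 0.039, Xiap -0.11, Naip2 -0.038, Cdkn1a -0.058; without number 3 Bak1 -0.030, Bbc3 -0.081, Pmaip1 -0.075, Bcl2l2 -0.12, Bnip3l 0.023, Parp1 -0.031, Vdac1 -0.011, Naip5 0.10, Jun 0.0026. The group difference of the anti-apoptotic minus pro-apoptotic score was -0.04 as reported and 0.04 as a log2 ratio of sums; leaving out single libraries, an alternative chosen after seeing the data, it ran from -0.18 to 0.16. Depth limits the low members: a value rested on roughly 24 to 98 fragments for Bcl2, 12 to 148 for Bcl2l1 and 15 to 126 for Bbc3.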
